A study of Mus musculus with 9 samples.

Results

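Lipoprotein lipase (Lpl) and the genes that control vascular lipolysis and lipid uptake were examined in mouse liver tumours driven by an active form of Notch1. The set had 8 genes: the lipases Lpl, Lipc and Lipg, the regulators Angptl4, Gpihbp1 and Lmf1, and the uptake receptors Cd36 and Vldlr. They were found by their symbol among the probe sets assigned to a single gene, and 7 of the 8 had such a probe set, 1 each, among 19938 genes measured. Lipc, the hepatic lipase, was not analysed here. The set was chosen by the high Lpl intensity in tumours against control livers, with genes of related function added, so that difference is given as a description.

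Total RNA of 9 tissue samples was hybridised to Affymetrix Mouse Gene ST arrays, 1 array per sample. The 4 control livers were healthy tissue of monotransgenic mice with the Rosa26-lsl-NICD allele alone, in which the Notch1 intracellular domain (NICD) is made only after Cre has acted. The 5 tumours were hepatocellular carcinomas (HCC) of bitransgenic AFP-Cre/Rosa26-lsl-NICD mice (AFP-NICD), in which Cre is made under the promoter of alpha-fetoprotein, a gene active in fetal liver and hepatoblasts. Both groups had the hybrid 129 x C57BL/6 background and were 6 to 12 months old. The tumour was compared with liver of other animals, not with liver beside the tumour. The labels do not say that each array came from a different animal, so the errors below measure the spread between these arrays.

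Array medians lay between 6.52 and 6.66 on the log2 scale. Hepatocyte markers had a summed intensity of 62732 to 67541 linear units on control arrays and 44422 to 63214 on HCC arrays, over 6 of 7 markers measured, and HCC array 5 was the highest of the tumours. The RNA Xist, a product of the inactive X, was at 10.68 to 11.76 on control arrays 1 to 3 and HCC arrays 1 and 2, and at 4.83 to 5.10 on control array 4 and HCC arrays 3, 4 and 5. Sex was therefore mixed in both groups by this measure alone, and the labels do not give it. In bulk tissue fewer cells of a type and less RNA per cell cannot be told apart.

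Lipoprotein lipase breaks down the triglycerides of chylomicrons and very low density lipoproteins (VLDL) on the capillary wall, and the fatty acids released enter the tissue behind it. It is made mainly in fat, heart, muscle and macrophages. The fetal and newborn liver makes it too, whereas the healthy adult hepatocyte makes little and relies on hepatic lipase and receptors. Before it can act, the enzyme is folded in the endoplasmic reticulum with the help of Lmf1 and carried to the capillary lumen by Gpihbp1. Angptl4 inhibits it, Cd36 takes up the fatty acids and Vldlr binds the lipoprotein particles.

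RefSeq promoter windows (GRCm38.p6) were held for 4 of the 8 genes, Cd36, Lipc, Lmf1 and Vldlr. The 250 bases before the start are shown for Cd36 and Vldlr, the members with the widest spread among tumours. Capitals mark TGGGAA, the core of the motif bound by Rbpj, the DNA-binding partner of NICD, and AGGTCA, the half-site of nuclear receptors such as the PPARs, on either strand.

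Cd36 (chr5:17835897-17836146, minus strand): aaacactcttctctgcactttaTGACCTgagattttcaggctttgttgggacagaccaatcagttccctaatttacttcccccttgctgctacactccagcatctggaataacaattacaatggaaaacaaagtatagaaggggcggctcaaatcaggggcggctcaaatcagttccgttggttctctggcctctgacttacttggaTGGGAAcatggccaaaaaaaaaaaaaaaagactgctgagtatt

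Vldlr (chr19:27216234-27216483, plus strand): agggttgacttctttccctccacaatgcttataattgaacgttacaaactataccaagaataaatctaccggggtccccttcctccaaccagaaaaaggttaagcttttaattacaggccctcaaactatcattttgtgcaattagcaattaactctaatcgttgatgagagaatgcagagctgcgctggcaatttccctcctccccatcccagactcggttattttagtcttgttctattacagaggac

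The Cd36 window held TGGGAA at 43 to 38 bases before the start and AGGTCA, on the opposite strand, at 228 to 223 bases before it. The shown Vldlr window held neither string. Over 32851 promoter windows of the same length, 21.6% had TGGGAA and 14% had AGGTCA on at least 1 strand. These matches are strings of letters and not measured sites.

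Lpl was the highest-changing member and was raised in every tumour. The control arrays 1 to 4 measured 6.10, 7.05, 6.69 and 6.75 on the log2 scale. The HCC arrays 1 to 5 measured 9.37, 10.53, 10.92, 10.26 and 9.26. All 5 tumours lay above all 4 control livers, HCC array 3 was the highest, and HCC arrays 1 and 5 were the lowest of the tumours. The means were 6.65 ± 0.40 (SD, n = 4) and 10.07 ± 0.73 (SD, n = 5), a 10.7-fold difference, and even the lowest tumour exceeded the highest control liver by 4.62-fold. Only 8 other genes among the 19938 had an increase that large, so 9 genes, or 0.0451%, reached it with Lpl counted. Falls were not counted.

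Cells that make Lpl outside the hepatocyte were followed by their markers. For adipocytes, 7 of 8 markers were measured, and none passed the adjusted p of 0.05 in limma. Their summed intensity ran from 802 to 973 on control arrays and from 866 to 1613 on HCC arrays, a range set by Fabp4, a fatty acid binding protein that capillary endothelium and macrophages also make. Without Fabp4, a split chosen after the values were seen, the sum ran from 479 to 609 in control liver and from 435 to 498 in HCC. The adipocyte hormone Adipoq measured 5.03 to 5.82 in control liver and 4.72 to 5.13 in HCC.

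For macrophages and Kupffer cells, all 11 markers were measured, with 8 of the 11 changes below 0 (against 57.5% of all genes) and 1 gene, Cd163, lower past the threshold (7.34 ± 0.24 and 5.95 ± 0.38, adjusted p = 0.025 in limma), against 0.16% of all genes. All tumours lay below all control livers for 1 of the 11, Cd163, and above them for 1, Gpnmb, against 3.86% and 5.63% of all genes. Gpnmb measured 5.93 ± 0.30 and 6.74 ± 0.72 (adjusted p = 0.227 in limma). The sum over the 11 markers ran from 3334 to 7041 on control arrays and from 1880 to 9312 on HCC arrays, with HCC array 2 the highest and HCC array 1 the lowest. For striated muscle, all 6 markers were measured and the sums overlapped, at 707 to 790 and 666 to 767. Other liver cells were followed in the same way. For stellate cells and fibroblasts, all 9 markers were measured and the sums overlapped, at 4387 to 5475 and 2544 to 6628. For biliary cells, 6 of 7 markers were measured, with sums of 529 to 577 on control arrays and 988 to 3649 on HCC arrays. All tumours lay above all control livers for 3 of the 6, against 5.63% of all genes. The part of any of these cells in the Lpl difference was not tested.

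**Figure D1:**
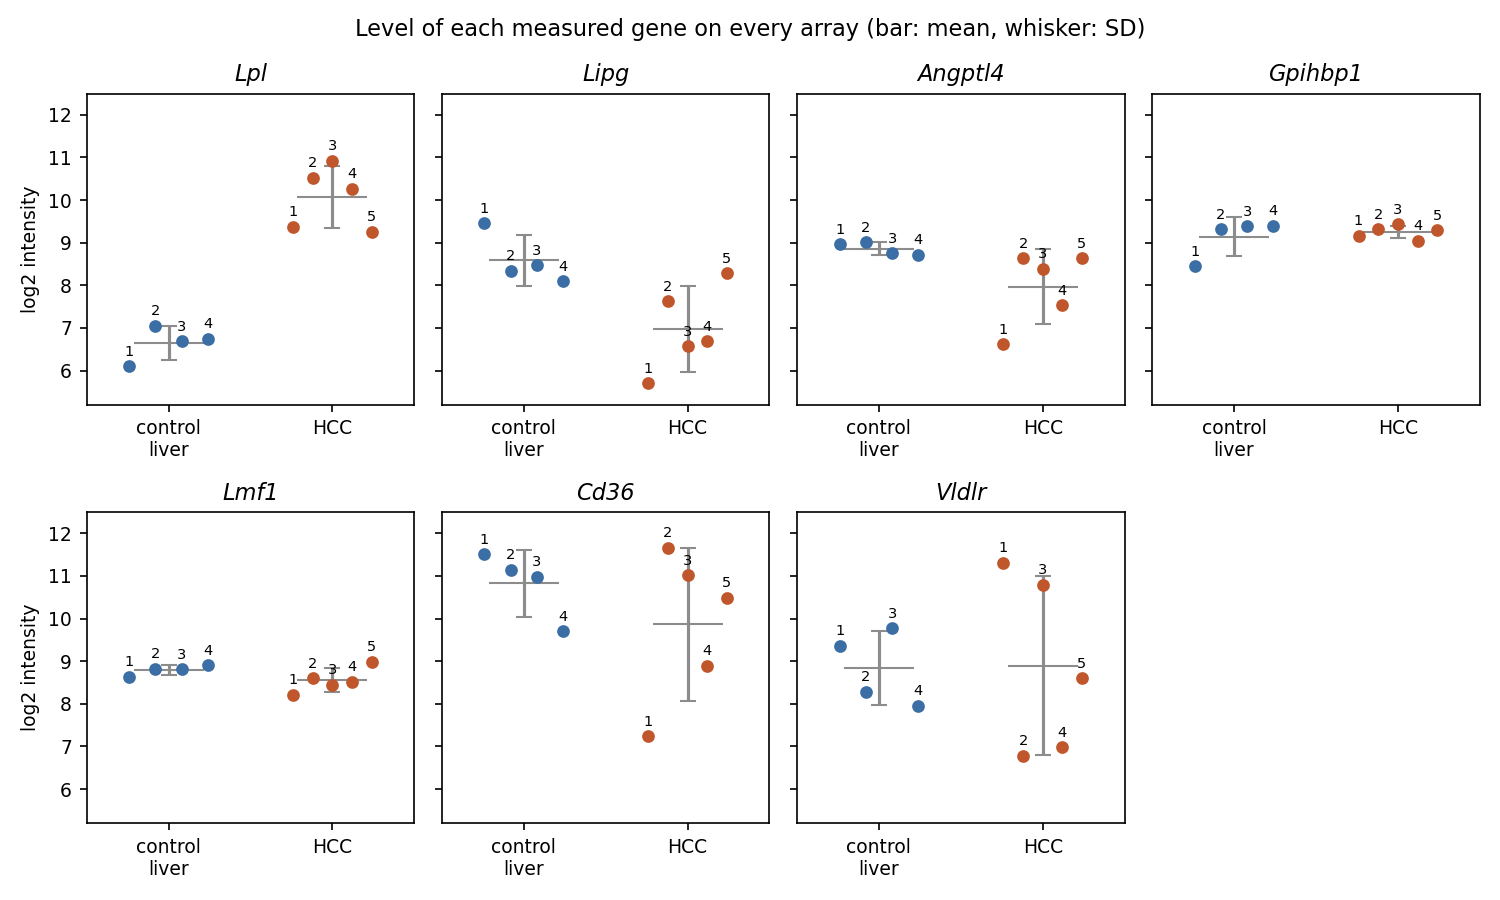
Log2 intensity of the 7 measured genes on each array, with control livers in blue and HCC in orange. Numbers are array numbers, the horizontal bar is the group mean and the whisker is 1 SD (n = 4 and n = 5). Lpl separates the groups with a gap, Gpihbp1 lies between 9.04 and 9.43 on all tumours, and Cd36 and Vldlr spread over more than 4 log2 units among tumours.

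Lipg, the endothelial lipase, which acts mainly on the phospholipids of high density lipoprotein, had the opposite direction to Lpl. It measured 9.45, 8.34, 8.47 and 8.09 on control arrays 1 to 4. It measured 5.71, 7.63, 6.58, 6.68 and 8.28 on HCC arrays 1 to 5. HCC arrays 1 to 4 lay below all control livers, while HCC array 5 lay inside their range. The log2 change was -1.61 (SE 0.50, 95% interval -2.74 to -0.49), which is 3.06-fold lower.

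Angptl4, the secreted inhibitor of lipoprotein lipase induced by PPARs and by fasting, was lower on every tumour array, with a narrow gap. Control arrays measured 8.96, 9.01, 8.76 and 8.72. HCC arrays measured 6.61, 8.64, 8.39, 7.54 and 8.64. The groups did not overlap, but the highest tumours came within 0.083 log2 units of the lowest control liver, and HCC arrays 1 and 4 carried most of the difference. The log2 change was -0.90 (SE 0.40), or 1.87-fold, and it was -0.56 without HCC array 1.

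Gpihbp1, the capillary protein that moves the lipase to the vessel lumen, had similar means in both groups. It measured 8.45, 9.31, 9.38 and 9.40 on control arrays and 9.17, 9.31, 9.43, 9.04 and 9.30 on HCC arrays. All tumours lay between 9.04 and 9.43, and control array 1 stood below the rest. The log2 change was 0.11 with a 95% interval from -0.32 to 0.55, and -0.11 without control array 1.

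Endothelial markers bear on Gpihbp1, which is an endothelial product in other tissues. All 11 were measured, with sums of 3226 to 3816 in control liver and 2700 to 3985 in HCC, and 6 changes were positive and 5 negative. Of these, 1 was called higher and none lower, against 0.858% and 0.16% of all genes. The called gene, Cd34, an endothelial surface protein, rose from 6.35 ± 0.05 to 7.33 ± 0.41 (adjusted p = 0.0498 in limma). All tumours lay above all control livers for 1 marker, Cd34, against 5.63% of all genes. They lay below for 2, Kdr and Clec4g, against 3.86% of all genes. Kdr measured 8.38 ± 0.12 and 7.74 ± 0.38 (adjusted p = 0.113 in limma), and Clec4g 9.82 ± 0.18 and 8.25 ± 1.47 (adjusted p = 0.223 in limma). The part of these cells in the Gpihbp1 level was not tested.

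Lmf1, the maturation factor of the lipases, had a slightly lower mean in HCC. It measured 8.64, 8.82, 8.81 and 8.90 on control arrays and 8.21, 8.60, 8.45, 8.51 and 8.98 on HCC arrays. HCC arrays 1 to 4 lay below every control liver and HCC array 5 lay above every one. The log2 change was -0.24 (SE 0.14, 95% interval -0.56 to 0.080), and -0.35 without HCC array 5.

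Cd36, the fatty acid translocase and scavenger receptor of hepatocytes, macrophages and endothelium, differed far more among tumours than between the groups. Control arrays measured 11.51, 11.14, 10.98 and 9.70. HCC arrays measured 7.24, 11.67, 11.01, 8.90 and 10.49. HCC arrays 1 and 4 were below every control liver, HCC array 2 was above, and HCC arrays 3 and 5 lay inside the control range. The highest tumour exceeded the lowest by 21.5-fold, against 3.49-fold among control livers. The SD of 1.79 in HCC was reached by 0.391% of all genes.

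The log2 change of Cd36 was -0.97 (SE 0.85), and it was -0.32 without HCC array 1 and -1.42 without HCC array 2. Hepatic Cd36 is known to be higher in female than in male mice, and the low control value was that of array 4, the control with low Xist. The tumours did not sort in this way. HCC arrays 1 and 2, with high Xist, had the lowest and the highest Cd36 (7.24 and 11.67). HCC arrays 3, 4 and 5, with low Xist, measured 11.01, 8.90 and 10.49. Adding the Xist level to the fit as a covariate gave a change of -0.91 (SE 0.95). The macrophage and Kupffer sum over 11 markers was 1880, 9312, 2665, 2533 and 2815 on HCC arrays 1 to 5. The part of these cells and of sex in the Cd36 spread was not tested.

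Vldlr, a receptor that binds apolipoprotein E-rich particles, split the tumours without a shift in their mean. Control arrays measured 9.37, 8.28, 9.78 and 7.95. HCC arrays measured 11.31, 6.79, 10.79, 6.98 and 8.60. HCC arrays 1 and 3 were above every control liver, HCC arrays 2 and 4 were below, and HCC array 5 was inside the control range. The highest tumour exceeded the lowest by 23.0-fold, against 3.54-fold among control livers, and the SD of 2.10 in HCC was reached by 0.241% of all genes. The log2 change of the means was 0.049 (SE 0.99), and it turned to -0.56 without HCC array 1 and to 0.58 without HCC array 2. Xist was 11.14 and 11.13 on HCC arrays 1 and 2 and between 4.92 and 5.10 on the other tumours, and the part of sex in the Vldlr spread was not tested.

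Read by array, the tumours combined these genes in different ways while sharing the Lpl signal. HCC array 1 had Lpl 2.73 and Vldlr 2.47 log2 units above the control mean, with Cd36 at -3.59, Lipg at -2.88 and Angptl4 at -2.25 relative to it. HCC array 4 had Lpl at 3.62 with Cd36 at -1.94, Lipg at -1.90, Vldlr at -1.87 and Angptl4 at -1.32. HCC array 2 paired the highest Cd36 (0.83) with the lowest Vldlr (-2.06), and HCC array 3 paired the highest Lpl (4.28) with a high Vldlr (1.95). HCC array 5 had 4 of the 7 genes inside the control range, with Lpl and Lmf1 above that range and Angptl4 below it. Their differences from the control mean were 2.61, 0.19 and -0.23. Over all genes 19.4% were above and 25.2% below every control liver on that array, the lowest shares of the 5 tumours. On HCC arrays 1 to 4, 1 of the 7 genes lay inside the control range in each case. Over all genes, 24.9% to 28.4% were above and 27.5% to 35% below every control liver on those arrays. Most genes thus lay outside the range there too, and nothing is read from the member counts.

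**Figure D2:**
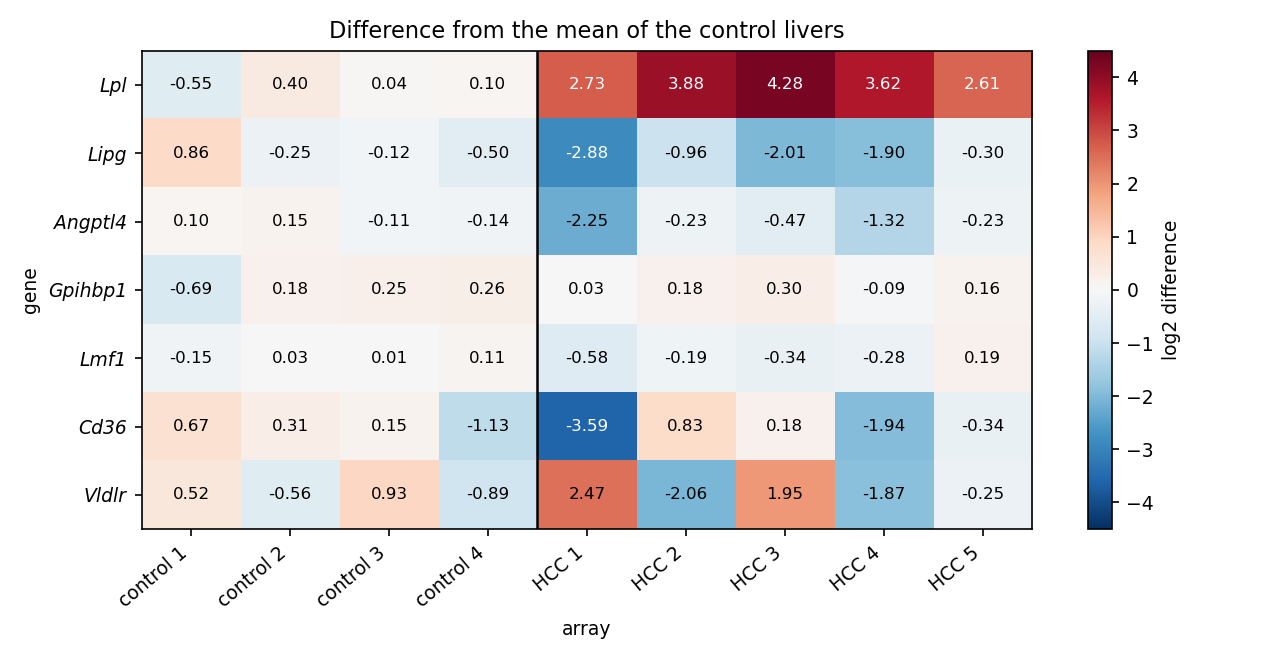
Log2 intensity of each gene minus its mean over the 4 control livers, by array, with the value written in each cell (red above, blue below). The Lpl row is between 2.61 and 4.28 on every HCC array, whereas Cd36 and Vldlr hold both signs among tumours.

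The fit across all genes gave the size and error of each difference. By limma with Benjamini-Hochberg adjustment over the 19938 genes, 1 of the 7 members was called, Lpl (higher), against 1.02% of all genes called in either direction and 0.858% called higher, and the groups of 2 of the 7, Lpl and Angptl4, did not overlap, against 9.48% of all genes. Since this contrast chose the set, nothing is read from those counts. The call of Lpl was lost without control array 3 (adjusted p = 0.0504 in limma, log2 change 3.44), and Lipg was called as well without HCC array 5 (log2 change -1.94, adjusted p = 0.0382 in limma), where 5.95% of all genes were called. The log2 change of Lpl was 3.42 (SE 0.36, 95% interval 2.61 to 4.23), and 3.35 with Xist added to the fit. The intervals of Gpihbp1, Lmf1, Cd36 and Vldlr included 0, and those of Cd36 (-2.88 to 0.93) and Vldlr (-2.17 to 2.27) allow large differences in either direction.

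**Figure D3:**
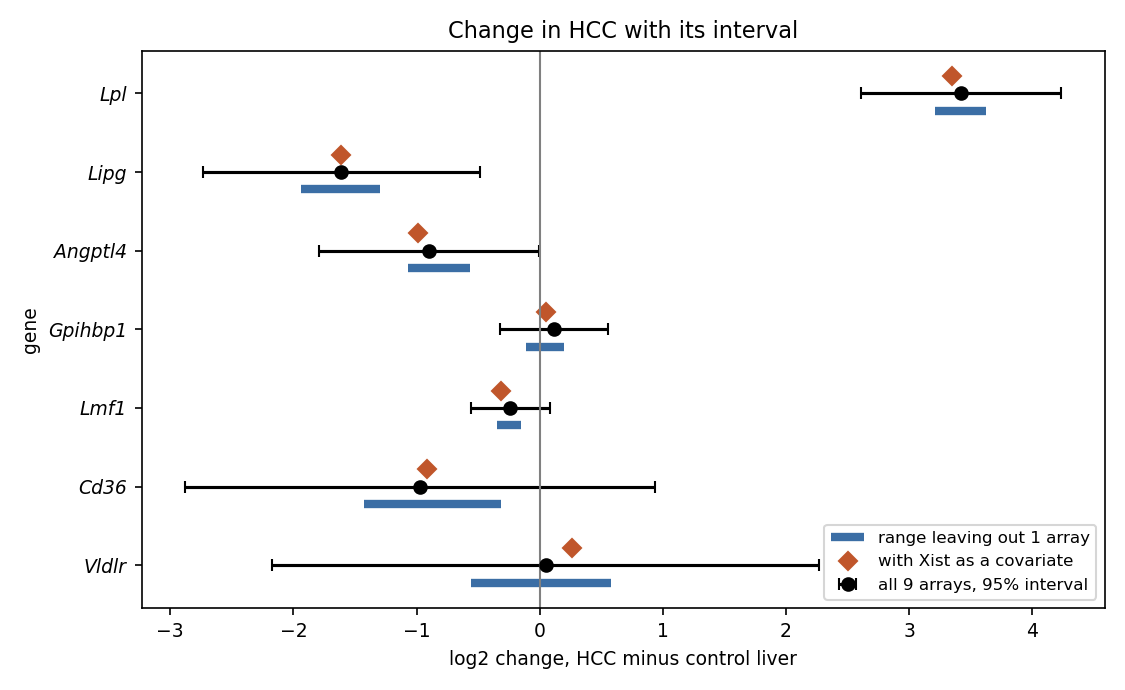
Log2 change in HCC against control liver for the 7 genes. Black points and lines are the estimate and its 95% interval over 9 arrays, blue bars the range of estimates when 1 array is left out, and orange diamonds the estimate with Xist as a covariate. Lpl stays between 3.21 and 3.63 when 1 array is left out, while the ranges of Gpihbp1 and Vldlr cross 0.

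Most other genes of lipase control and lipid uptake had a lower mean in HCC, but none passed the test. In 6 lists with 105 genes, 92 were measured, and limma called none of them in either direction at an adjusted p of 0.05, against 1.02% of all genes. At an unadjusted p below 0.05, 4 were higher and 26 lower, together 32.6%, against 20.4% of all genes. The median log2 change was -0.21 against -0.033 over all genes, and 74 of the 92 changes were negative (80.4%, against 57.5% over all genes). All HCC arrays lay below all control arrays for 10 of the 92 genes, against 3.86% of all genes, and above them for 2, against 5.63%. Without HCC array 5, limma called 2 higher (Sort1 and Fabp4) and 11 lower, against 3.16% and 2.79% of all genes.

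Among apolipoproteins and other lipase regulators, all 16 measured genes had a negative change and none was called. Apoa5, the apolipoprotein that supports lipolysis by lipoprotein lipase, measured 12.40 ± 0.15 in control liver and 10.71 ± 1.07 in HCC (3.22-fold, adjusted p = 0.114 in limma). Its control arrays lay between 12.25 and 12.60, and its HCC arrays measured 9.74, 10.82, 11.27, 9.59 and 12.16, so the groups were separated only narrowly, at HCC array 5. Apoc4 measured 11.63 ± 0.11 and 11.08 ± 0.40 (adjusted p = 0.158 in limma). The list median was -0.27.

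Of 16 other lipases and related esterases, 13 had a negative change and none was called. Mgll, which splits monoacylglycerol, measured 10.52 ± 0.07 and 9.55 ± 0.53 (1.96-fold, adjusted p = 0.0884 in limma, and 0.0021 without HCC array 5). Lcat, which esterifies cholesterol in high density lipoprotein, measured 11.34 ± 0.09 and 10.42 ± 0.62 (adjusted p = 0.13 in limma). The list median was -0.091, near that of all genes.

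Of 13 lipoprotein receptors and their adaptors, 5 had a positive and 8 a negative change, with a median of -0.055. Sort1, the sorting receptor sortilin, was the member with the largest change. It measured 6.61, 6.65, 6.78 and 7.34 on control arrays and 9.40, 7.83, 8.08, 8.64 and 7.47 on HCC arrays. Each tumour exceeded each control liver, and the 2.71-fold difference had an adjusted p of 0.0904 in limma (0.0309 without HCC array 5). Mylip, a ubiquitin ligase that marks Vldlr for breakdown, measured 7.85 ± 0.17 and 7.28 ± 0.21 (adjusted p = 0.0645 in limma). Its HCC values were 7.08, 7.56, 7.17, 7.13 and 7.43, all below the control range.

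Of 17 fatty acid transporters, binding proteins and acyl-CoA synthetases, 6 had a positive and 11 a negative change. Cav1, the coat protein of caveolae, measured 6.93 ± 0.17 in control liver and 8.17 ± 0.77 in HCC (2.36-fold, adjusted p = 0.114 in limma), and Fabp1, the fatty acid binding protein of hepatocytes, measured 13.56 ± 0.08 and 12.93 ± 0.44 (adjusted p = 0.142 in limma). Fabp4 measured 8.25 to 8.95 on control arrays and 10.19, 9.55, 9.79, 9.53 and 8.53 on HCC arrays. This gene, singled out after its values were seen, was above the control range on 4 of 5 tumours.

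Of 16 nuclear receptors, cofactors and other factors known to act on lipase and uptake genes, 13 had a negative change and none was called. Nr1i3, the xenobiotic receptor CAR, measured 11.04 ± 0.48 and 8.15 ± 1.95 (7.40-fold, adjusted p = 0.13 in limma). Ppara, which drives fatty acid oxidation in hepatocytes and acts on Angptl4, measured 10.71, 10.23, 10.13 and 10.14 on control arrays and 7.98, 9.67, 9.32, 8.79 and 9.88 on HCC arrays (adjusted p = 0.13 in limma). Its lowest tumours were HCC arrays 1 and 4, as for Angptl4 and Cd36. The same arrays were also the lowest tumours for Apoa5, Lcat and the endothelial markers Kdr and Clec4g. The part of Ppara in the Angptl4 and Cd36 levels was not tested. Foxo1 measured 8.77 ± 0.14 and 8.43 ± 0.22 (adjusted p = 0.176 in limma).

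Pparg, the receptor of adipocytes and macrophages that acts on Lpl and Cd36, was singled out after its values were seen. It measured 8.64, 9.02, 9.02 and 9.01 on control arrays and 8.26, 9.39, 9.97, 8.76 and 9.15 on HCC arrays, and the groups overlapped. HCC array 3 had both the highest Pparg and the highest Lpl, but the lowest Pparg was on HCC array 1 and the lowest Lpl on HCC array 5. The part of Pparg in the Lpl level was not tested.

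Of 16 PPAR targets outside the set, 14 had a negative and 2 a positive change, with a median of -0.38 and no call. The groups did not overlap for 2 of them (against 9.48% of all genes): Fabp1, given above, and Plin5, a coat protein of lipid droplets (7.08 ± 0.14 and 6.69 ± 0.16, adjusted p = 0.0937 in limma). This list and the factors above had the lowest medians of the 6 lists, and the factors were at -0.33. Lpl, a PPAR target in other tissues, had a positive change, the direction of Fabp4 (0.99) and Cidea (0.22) in this list. The part of the PPARs in the Lpl level was not tested.

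**Figure D4:**
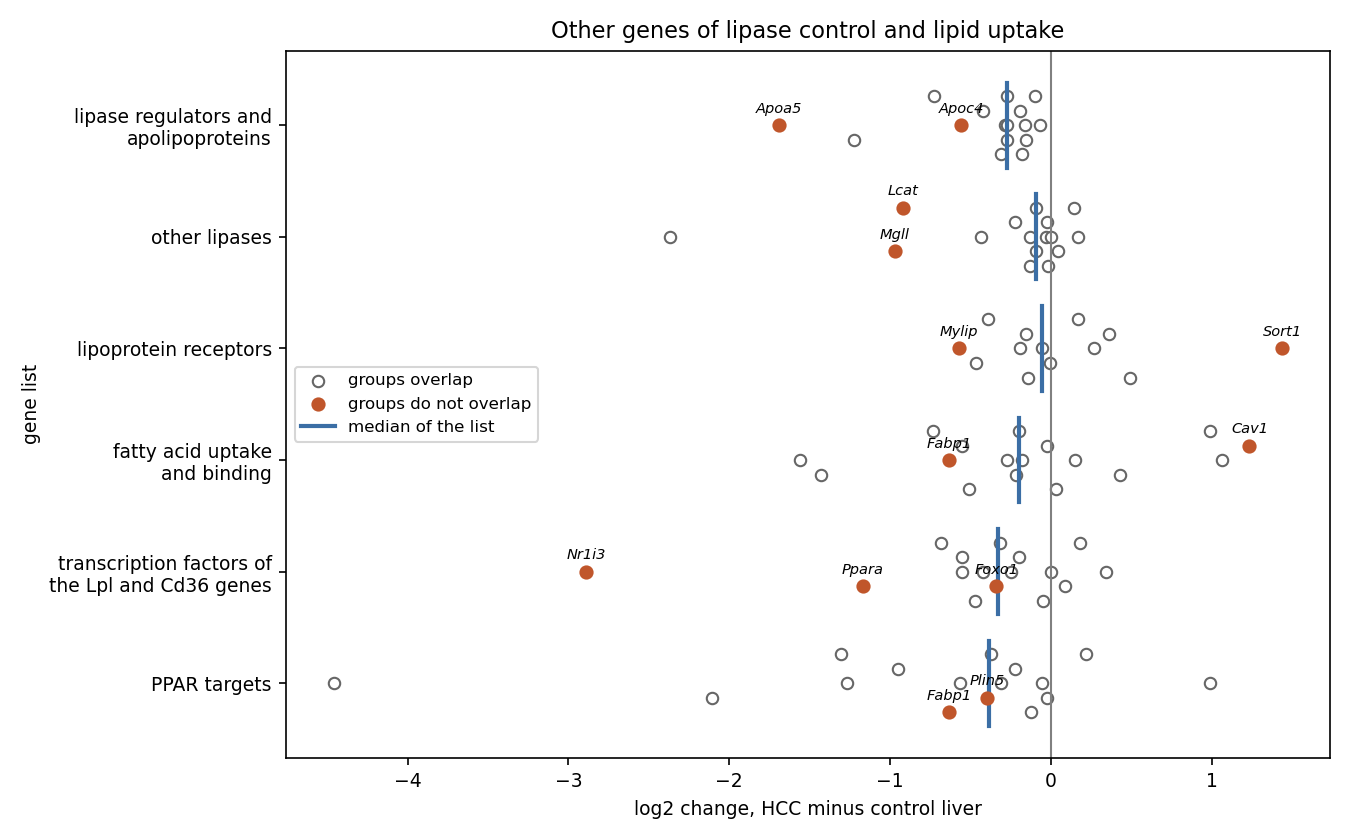
Log2 change in HCC against control liver for the measured genes of 6 lists, 1 point per gene. Filled points are genes whose 2 groups do not overlap, open points overlap, and the blue line is the list median. Most points lie below 0, and Sort1 and Cav1 are the filled points above it.

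The 6 genes whose profiles were most like that of Lpl were Ubd, Cd63, Sema5a, Scd2, Tmem45a and Meg3. Likeness was the root mean square difference over the 9 arrays between 2 profiles, each taken as log2 intensity minus its control mean, and it gives no test. It was 0.68 log2 units for the ubiquitin-like modifier Ubd, 0.78 for the endosomal tetraspanin Cd63, 0.82 for the semaphorin Sema5a, 0.83 for the desaturase Scd2, 0.84 for Tmem45a and 0.85 for the noncoding RNA Meg3, against a median of 2.64 over all genes. Ubd, like Lpl, was highest on HCC array 3 (11.07), followed by HCC arrays 2 and 4, and it was 7.34 on HCC array 1. Cd63 was more even, at 12.70, 12.89, 12.41, 12.73 and 11.90 on HCC arrays 1 to 5 against 9.73 to 10.33 in control liver. Scd2 and Tmem45a were highest on HCC array 1 (10.49 and 11.08), where Lpl was next to lowest. Gpihbp1, the member nearest to Lpl, was the 4530th gene in that order. The measure depends largely on the size of the group difference, by which Lpl was chosen. The order therefore says little about likeness among the tumours alone.

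**Figure D5:**
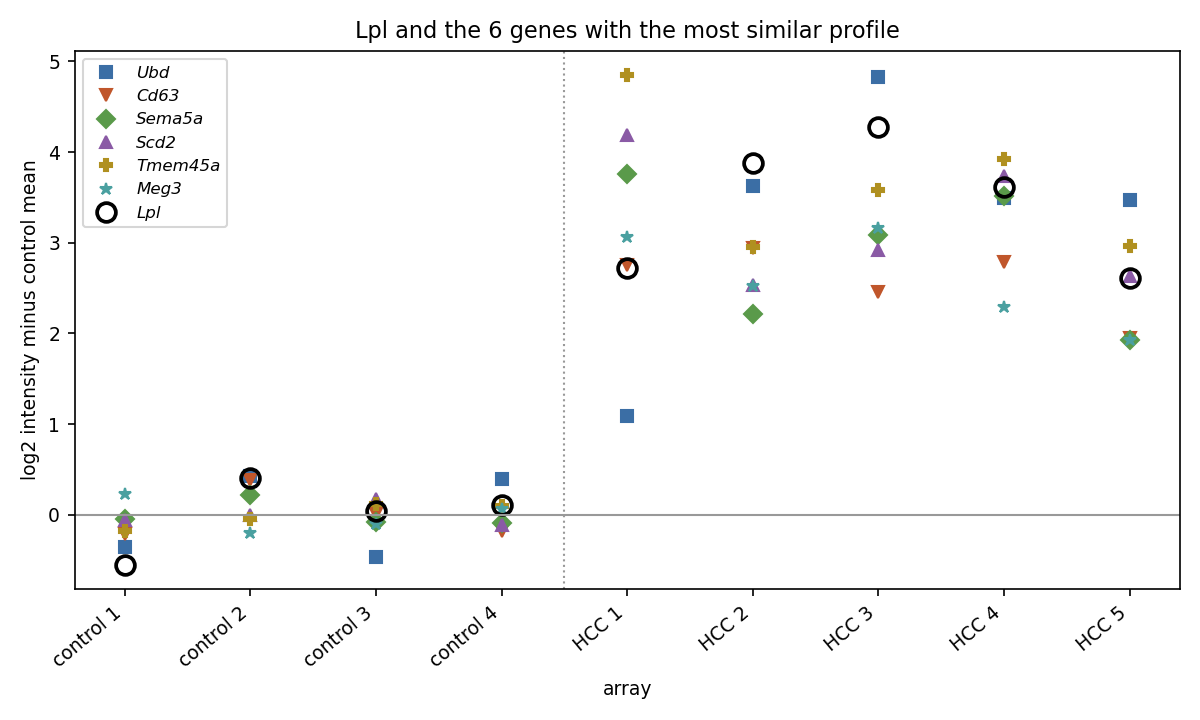
Log2 intensity minus the control mean on each array for Lpl (open black circles) and the 6 genes with the smallest root mean square difference from it. All 7 genes lie near 0 on control arrays and above 1 on every HCC array, and they differ from each other most on HCC array 1.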

How the data were processed

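The authors deposited linear intensities, 1 per probe set, made with RMA per the submitters' processing notes, and preprocessed with GenePattern and R per the labels. RMA equalises the distribution of probe intensities between arrays, so a shift shared by most genes would not be seen. The sources used here give no versions. Intensities were put on the log2 scale with no pseudocount.

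The table held 35512 probe sets, of which 21789 carried a single gene symbol, 1621 more than 1 and 12102 no symbol. Symbols were updated by Entrez identifier through RefSeq (GRCm38.p6), where 21698 matched. For each of 19938 genes the probe set with the highest mean was kept. Groups were compared with limma 3.58.1 (lmFit and eBayes, R 4.3.3), two-sided, with Benjamini-Hochberg adjustment over all genes and a threshold of 0.05. Tables were handled with pandas 2.3.3.

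The members, lists and alternatives were chosen with earlier results of these data known. Named genes were the members, up to 3 genes per list that passed the threshold or whose groups did not overlap (largest change first), and the 6 genes most like Lpl. In simulated data for this comparison with 19938 genes, the fit recovered 80% of 100 genes changed by a log2 of 1 and 98% of 100 changed by a log2 of 2, with 16 false calls. The simulated errors were normal and independent between genes and arrays, which the real arrays need not follow. The changed genes were picked at random, so these shares do not describe genes with a wide spread among tumours. No scanner file, scan date or detection call was used here, so a low value does not say that a transcript was absent.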

Additional observations from a re-analysis of the deposited data

Results flagged for a closer look

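In 4 of 50 groups checked, 1 array stood apart from the rest of its group by Dixon's criterion, which chance alone meets in about 1 of 20. Gpihbp1 was 8.45 on control array 1 against 9.31 to 9.40 on the other control livers. Nr1i3 was 11.77 on control array 1 against 10.79 to 10.82, Plin5 was 6.87 on control array 2 against 7.13 to 7.17, and Sema5a was 6.26 on control array 2 against 5.94 to 5.98.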

How the results depend on the processing

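Each of the 7 members' log2 changes moved by less than 1 SD of the arrays under all 9 settings other than leaving out 1 array (63 values). Some of these settings could not move the changes. The filter on low means and eBayes with trend and robust estimation alter only the errors. Each member had 1 probe set, so both settings for genes with several probe sets used the same member values. Leaving out 1 array gave 3.21 to 3.63 for Lpl, -1.94 to -1.29 for Lipg, -1.07 to -0.56 for Angptl4, -0.11 to 0.20 for Gpihbp1, -0.35 to -0.15 for Lmf1, -1.42 to -0.32 for Cd36 and -0.56 to 0.58 for Vldlr. It also moved the counts called in limma, from 171 higher and 32 lower over all genes to 10 to 631 and 0 to 556, from 0 of the other pathway genes to 0 to 2 higher and 0 to 11 lower, and from 1 and 0 members to 0 to 1 in each direction. No gene was lower without control array 1, 2 or 3, with 3171, 3346 and 3122 genes at an unadjusted p below 0.05 in either direction. With the filter on low means 285 genes were higher and 93 lower, with 1 pathway gene lower. After quantile normalisation 49 genes were lower, with 1 pathway gene among them. With array weights 503 genes were higher and 246 lower, with 2 and 3 pathway genes among them.

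The replicate number as a block, over the 8 arrays with a shared number, gave 259 genes higher and 220 lower, with 4 pathway genes lower, against 631, 556 and 11 over the same arrays without the block. Same-numbered arrays did not deviate together (correlations -0.004, 0.324, -0.029 and -0.083, and 2 of 8 arrays correlated best with their own number), so the numbers were not taken as pairs. Of 96 values of 12 named pathway genes under these settings, 87 kept their side of the threshold, 9 passed it newly and none changed sign. Low signals could not be told from background, since no detection calls were used.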
